A study of Mus musculus with 4 samples.

Results

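The genes of the proteasome and of the immunoproteasome were examined in CCR6+ group 3 innate lymphoid cells (ILC3) of mice. All genes whose symbol on the array platform begins with Psma to Psmg followed by a digit were taken, which gave 50 of 19938 named genes. The cells were taken from mesenteric lymph nodes of C57BL/6 mice, given as naive, and were sorted as CD127+ CD90.2+ CCR6+ ST2- cells. The labels give no age, sex or further marker of the gate. Total RNA was labelled with biotin and hybridised to 4 arrays, which form 1 group and are called arrays 1 to 4 after the sample numbers. With no second cell type or condition, a gene could be compared with background only, and its spread over the arrays was described. Separate animals are not stated for the samples, so that spread may be partly technical.

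The proteasome is the main protease of cytosol and nucleus and degrades proteins tagged with ubiquitin. Its 20S core is a barrel of alpha rings, which gate the entry, around beta rings, which carry the catalytic sites, and the 19S cap binds, unfolds and feeds in the substrate. In lymphocytes and under interferon gamma the standard catalytic subunits are replaced by Psmb8 (LMP7), Psmb9 (LMP2) and Psmb10 (MECL1), which favours peptides that fit MHC class I. Psmb8 takes the place of Psmb5, Psmb9 that of Psmb6 and Psmb10 that of Psmb7. In the order of protein-coding genes in RefSeq, Psmb9, Tap1, Psmb8 and Tap2 follow each other in the MHC region.

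The stretches of 250 bases before the start sites of the catalytic subunit genes are printed to show what differs between the genes of the exchangeable pairs. They are from RefSeq on GRCm38.p6, 5' to 3' on the gene's own strand, and Psmb7 is not shown. Capitals mark matches, on either strand, to the core of the antioxidant response element (TGACNNNGC, bound by NFE2L1 and NFE2L2), the core of the interferon-stimulated response element (GAAA, any 2 bases, GAAA), the gamma-activated site (TTCNNNGAA) and the CCAAT box (CCAAT).
Psmb8 (chr17:34197945-34198194, plus strand): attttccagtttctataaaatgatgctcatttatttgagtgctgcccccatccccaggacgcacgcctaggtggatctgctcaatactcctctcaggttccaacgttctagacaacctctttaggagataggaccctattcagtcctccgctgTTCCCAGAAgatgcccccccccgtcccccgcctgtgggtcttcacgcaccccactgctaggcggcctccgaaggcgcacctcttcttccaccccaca
Psmb9 (chr17:34187331-34187580, minus strand): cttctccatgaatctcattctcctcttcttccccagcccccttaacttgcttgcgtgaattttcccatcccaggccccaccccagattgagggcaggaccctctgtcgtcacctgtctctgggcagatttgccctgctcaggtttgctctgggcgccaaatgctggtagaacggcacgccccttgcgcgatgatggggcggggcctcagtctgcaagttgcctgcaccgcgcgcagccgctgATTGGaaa
Psmb10 (chr8:105938393-105938642, minus strand): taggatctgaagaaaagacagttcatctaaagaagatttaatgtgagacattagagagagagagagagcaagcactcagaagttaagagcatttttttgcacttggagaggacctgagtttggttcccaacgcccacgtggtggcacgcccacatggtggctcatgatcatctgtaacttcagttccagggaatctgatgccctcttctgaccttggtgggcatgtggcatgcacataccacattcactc
Psmb5 (chr14:54617996-54618245, minus strand): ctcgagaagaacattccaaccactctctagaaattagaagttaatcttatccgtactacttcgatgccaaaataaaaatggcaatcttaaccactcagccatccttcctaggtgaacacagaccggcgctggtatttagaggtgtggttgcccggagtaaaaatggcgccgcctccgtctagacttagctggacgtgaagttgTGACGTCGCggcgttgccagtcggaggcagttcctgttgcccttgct
Psmb6 (chr11:70525107-70525356, plus strand): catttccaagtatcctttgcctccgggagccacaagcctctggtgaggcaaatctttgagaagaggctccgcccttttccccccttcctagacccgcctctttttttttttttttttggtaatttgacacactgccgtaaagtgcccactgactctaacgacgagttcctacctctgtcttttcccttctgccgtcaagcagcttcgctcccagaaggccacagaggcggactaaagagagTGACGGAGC
Of the standard subunit genes shown, Psmb5 and Psmb6 held 1 antioxidant response element core each. The window of Psmb8 held 1 gamma-activated site, that of Psmb9 1 CCAAT box read on the other strand, and that of Psmb10 held no match. No matches overlapped. A match to letters is not a bound site, and a window without one says nothing of the factor.

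Over whole windows, which reach 50 bases past the start site, 42 of the 50 genes had a sequence. The antioxidant response element core was found in 6 of the 42 (14.3%), beside 14.0% of all 27025 genes with a window. The interferon-stimulated response element core was found in 5 (11.9%), beside 4.0% of all genes. They were Psmb3, Psmd4, Psmd9, Psme1 and Psmg4, and none of them is a catalytic subunit. The gamma-activated site was found in 3 (7.14%), beside 9.55%, and the CCAAT box in 16 (38.1%), beside 41.1%. These shares are descriptions and were not tested.

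The values are log2 levels after RMA (robust multi-array average). A gene was called above background when its mean exceeded nearly all of 1241 genes for odorant, pheromone, trace amine and bitter taste receptors, with a Benjamini-Hochberg adjusted detection p under 0.05 over all named genes. Of the 50 genes, 47 (94%) were above background, while 46.2% of all named genes were. Above the highest value of 16 genes of other organs, 7.42, on every array lay 42 of the 50 (84%), while 24.1% of all named genes did. With the 95th percentile of the background genes on every array as the limit, 48 of the 50 passed, beside 54.4% of all named genes, and by limma's test 48 did, beside 54.2%. The median of the 50 mean levels was 8.94, beside 6.16 for all named genes. Of the 50, 36 encode subunits of core or cap, 5 regulators that bind the core and 7 chaperones that assemble the particle. The other 2, Psmc3ip, a factor of meiotic recombination, and Psme3ip1, a protein that binds PSME3, were matched by their symbols only. Binding differs between probe sets, so levels of different genes are not amounts of RNA relative to each other.

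**Figure D1:**
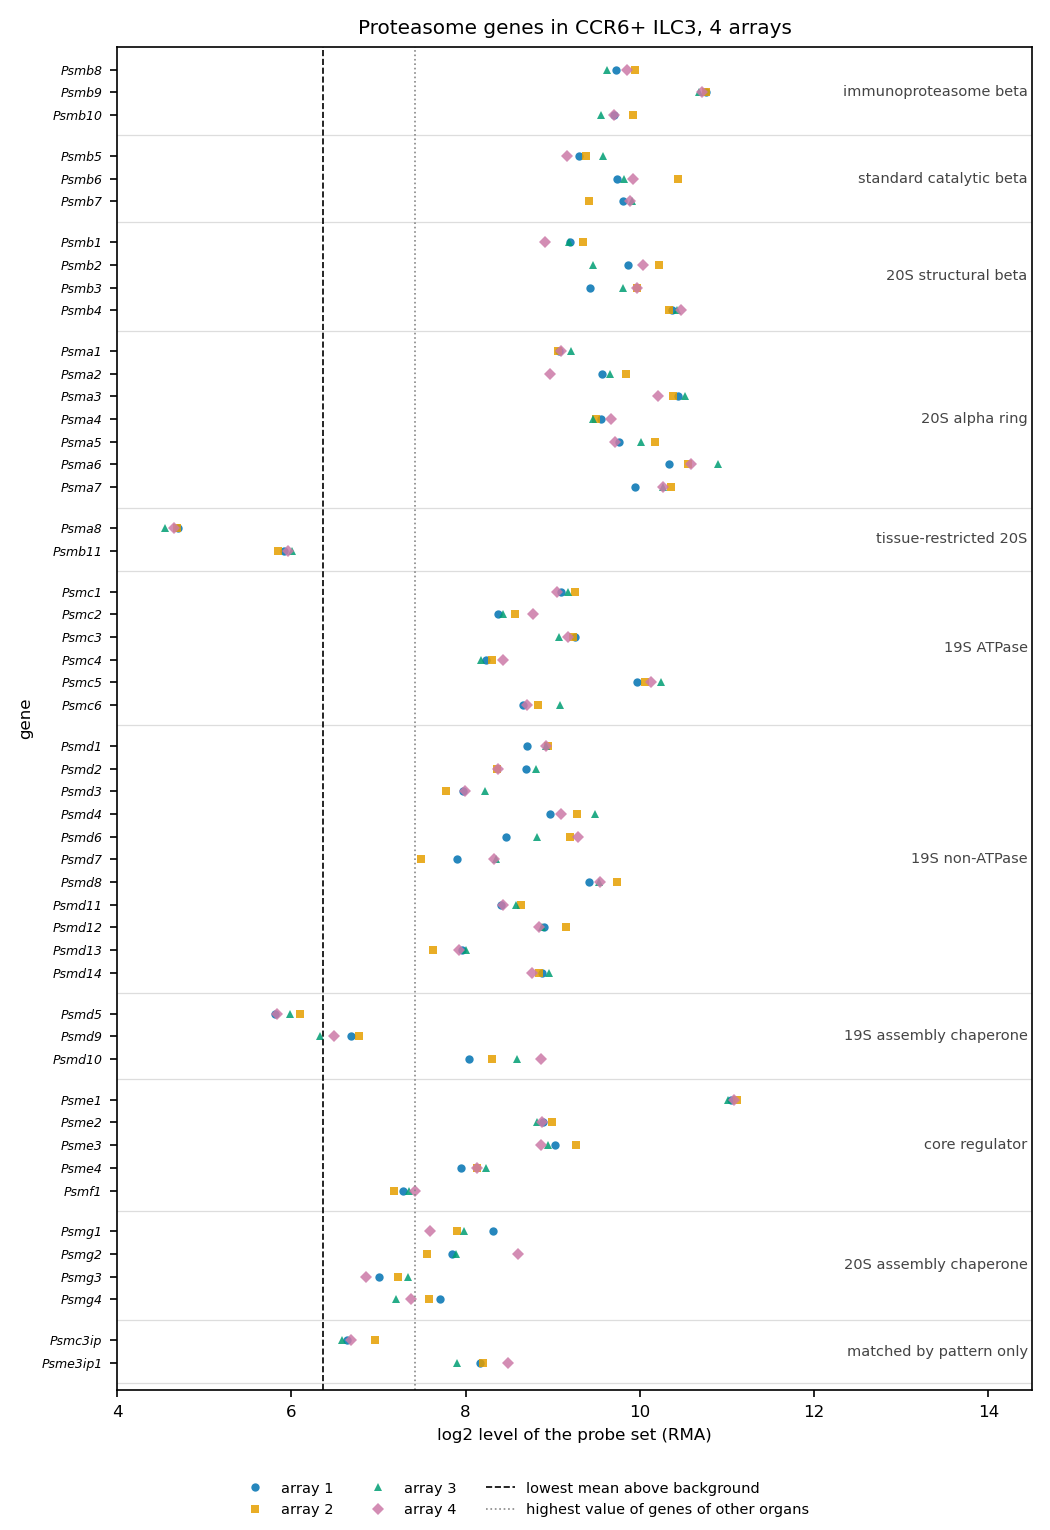
Log2 level (x axis) of the 50 genes (y axis, grouped by role), 1 point for each of the 4 arrays. The dashed line marks the lowest mean called above background, 6.37, and the dotted line the highest value of the genes of other organs, 7.42; Psma8, Psmb11 and Psmd5 lie left of the dashed line on every array.

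The sorted cells were checked first. All 10 ILC3 markers measured were above background and above the genes of other organs, and their mean was 10.65, 10.76, 10.68 and 10.75 on arrays 1 to 4. Of the B cell markers 10 of 11 were called, and their mean was 8.59, 7.77, 8.85 and 7.68, higher on arrays 1 and 3 than on arrays 2 and 4. Of the T cell markers 9 of 11 were called, at list means of 7.26, 7.20, 7.53 and 7.22. Natural killer and ILC1 markers were called in 6 of 9 cases, at 7.02, 7.40, 7.16 and 6.84, dendritic cell markers in 5 of 9, at 6.16, 6.48, 6.57 and 6.18, and monocyte and macrophage markers in 2 of 8, at 6.41, 6.23, 6.37 and 5.93. Of 6 plasma cell markers 4 were above background, at list means of 7.01, 6.86, 7.86 and 6.62. Of all named genes 46.2% were above background and 24.1% above the genes of other organs. By the second rule 8 of 11 B cell, 3 of 11 T cell and 3 of 9 natural killer and ILC1 markers passed. Of the dendritic cell markers 1 of 9 passed it, of the monocyte and macrophage markers 1 of 8 and of the plasma cell markers 1 of 6. Whether these markers came from other cells in the samples was not tested. If they did, fewer cells of a type and less RNA per cell cannot be told apart.

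All 3 immunoproteasome subunit genes were above background, and Psmb9 differed little between arrays. Psmb8, whose product carries the chymotrypsin-like site, was at 9.73, 9.94, 9.62 and 9.85 on arrays 1 to 4 (mean 9.79 ± 0.14, SD, n = 4, as for all means that follow). Psmb9, whose product takes the place of the caspase-like subunit, was at 10.76, 10.76, 10.68 and 10.71 (10.73 ± 0.04). Psmb10, whose product carries the trypsin-like site, was at 9.70, 9.92, 9.56 and 9.70 (9.72 ± 0.15). All 3 were lowest on array 3, and Psmb8 and Psmb10 were highest on array 2. The share of all genes above background that had a smaller SD was 40.6% for Psmb8, 5.04% for Psmb9 and 43.6% for Psmb10. B cell markers were also called on these arrays, and their part in these levels was not tested. Psmb8, Psmb9 and Psmb10 each had an adjusted detection p of 0.0108, with all background genes below them.

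The standard catalytic subunit genes were above background as well. Psmb5 was at 9.30, 9.38, 9.58 and 9.17 on arrays 1 to 4 (9.36 ± 0.17). Psmb6 was at 9.74, 10.44, 9.81 and 9.92 (9.98 ± 0.31). Psmb7 was at 9.80, 9.42, 9.91 and 9.89 (9.76 ± 0.23). The 3 genes did not follow one pattern: array 2 held the highest value of Psmb6 and the lowest of Psmb7, and Psmb5 was highest on array 3. RefSeq lists pseudogenes of all 3, and whether their transcripts reach these probe sets was not tested.

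The exchangeable pairs were compared within each array. A difference between probe sets is no ratio of RNA amounts, and its range over the arrays is given as a description. Psmb8 minus Psmb5 was 0.43, 0.57, 0.04 and 0.69 log2 units on arrays 1 to 4 (0.43 ± 0.28). Psmb9 minus Psmb6 was 1.02, 0.33, 0.87 and 0.79 (0.75 ± 0.30). Psmb10 minus Psmb7 was -0.10, 0.50, -0.36 and -0.19 (-0.04 ± 0.37). The range over the arrays was 0.65 log2 units for the first pair, 0.70 for the second and 0.86 for the third. Ranges for other pairs of genes were not computed, so these do not show whether a pair moved together. In the second pair, Psmb6 itself spanned 0.70 log2 units and Psmb9 0.08. Averaged over the pairs, the difference was 0.45, 0.47, 0.18 and 0.43 (0.38 ± 0.13), and it was smallest on array 3. The immunoproteasome genes had SDs of 0.04 to 0.15 and the standard genes 0.17 to 0.31, the nearest being Psmb10 at 0.150 and Psmb5 at 0.173. This order did not hold without array 2, where the SD was 0.12 for Psmb8, 0.04 for Psmb9 and 0.08 for Psmb10, against 0.21 for Psmb5, 0.09 for Psmb6 and 0.06 for Psmb7. Nor did it hold without array 3, where Psmb8 was at 0.109, Psmb10 at 0.126 and Psmb5 at 0.107, or without array 4, where Psmb8 was at 0.165, Psmb10 at 0.184 and Psmb5 at 0.145. The order of the SDs was not tested.

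**Figure D2:**
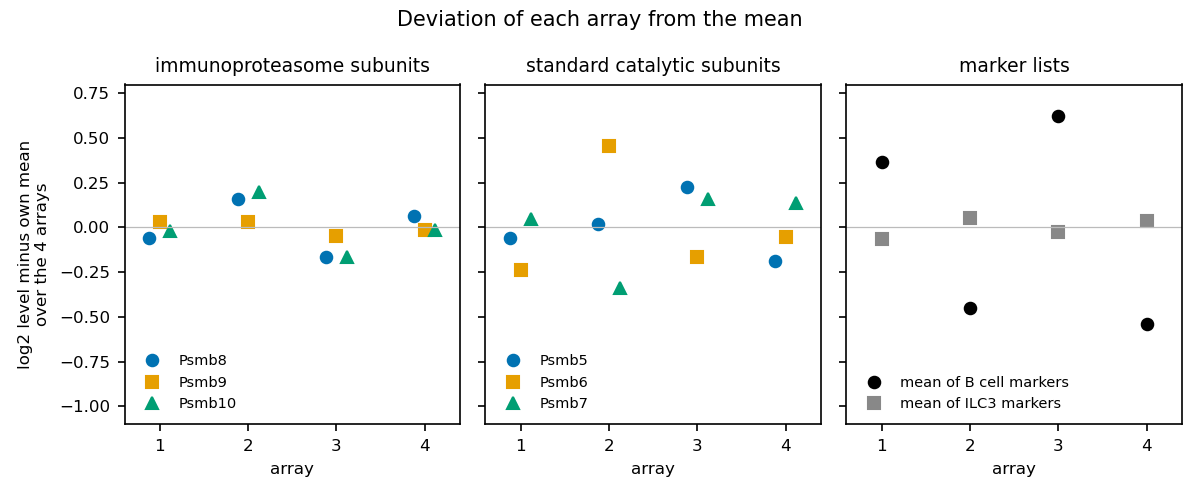
Log2 level minus the gene's or list's own mean over the 4 arrays (y axis) on each array (x axis), for Psmb8, Psmb9 and Psmb10, for Psmb5, Psmb6 and Psmb7, and for the means of the B cell and ILC3 marker lists. Array 2 holds the highest point of Psmb6 (a level of 10.44) and the lowest of Psmb7 (a level of 9.42), and the B cell marker mean is higher on arrays 1 and 3 than on arrays 2 and 4.

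The alternative 20S subunits of other tissues were not above background. Psma8, an alpha subunit of the testis, was at 4.69, 4.69, 4.55 and 4.66 on arrays 1 to 4 (4.65 ± 0.07), with an adjusted detection p of 0.365. Psmb11, the catalytic subunit of the cortical epithelium of the thymus and in RefSeq the next protein-coding gene to Psmb5, was at 5.91, 5.85, 6.01 and 5.97 (5.94 ± 0.07), with an adjusted p of 0.0775. Psmb11 did lie above the 95th percentile of the background genes on every array, which was 5.72, 5.82, 5.79 and 5.84, and limma's test also called it. It stayed below the highest value of the genes of other organs.

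The remaining beta subunits hold the inner rings together, and all 4 genes were above the genes of other organs on every array. Psmb4 was at 10.37, 10.33, 10.43 and 10.47 on arrays 1 to 4 (10.40 ± 0.06). Psmb1 was at 9.20, 9.35, 9.19 and 8.91 (9.16 ± 0.18), lowest on array 4. Psmb2 was at 9.86, 10.22, 9.47 and 10.03 (9.89 ± 0.32) and varied most of the 4, with its low value on array 3. Psmb3 was read by 2 probe sets, of which the higher was at 9.42, 9.97, 9.81 and 9.96 and the other at 8.90, 9.37, 9.20 and 9.50. Both placed array 1 lowest, and whether each reads transcripts of Psmb3 alone was not tested.

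Of the alpha ring genes 7 of 7 were above the genes of other organs, with mean levels between 9.11 and 10.59. Psma6 was at 10.33, 10.55, 10.89 and 10.59 on arrays 1 to 4 (10.59 ± 0.23). Psma1 was at 9.07, 9.06, 9.21 and 9.09 (9.11 ± 0.07). Psma2 was at 9.57, 9.84, 9.66 and 8.97 (9.51 ± 0.38), with array 4 standing below the other 3. Psma4 was at 9.55 ± 0.09. Psma7, whose product PSMA8 replaces in the testis, was at 9.95, 10.35, 10.27 and 10.26 (10.21 ± 0.18). The 3 probe sets of Psma3 had means of 10.38, 10.38 and 10.30 and all were lowest on array 4. The probe sets of Psma5 had means of 9.91 and 8.99, both higher on arrays 2 and 3 than on arrays 1 and 4. A Psma5 pseudogene is listed in RefSeq, and its part in the higher of these was not tested.

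The 19S cap opens with a ring of ATPases that unfold the substrate, and all 6 genes were above the genes of other organs. Psmc5 was at 9.96, 10.06, 10.24 and 10.13 on arrays 1 to 4 (10.10 ± 0.12). Psmc4 was at 8.23, 8.30, 8.18 and 8.43 (8.28 ± 0.11). Psmc6 had the largest SD of the ring, 0.19, at 8.66, 8.84, 9.09 and 8.71. Psmc2 was at 8.54 ± 0.18 and Psmc3 at 9.19 ± 0.08, and the probe sets of Psmc1 had means of 9.14 and 8.87. The Psmc1 probe set used had an SD of 0.09 and was lowest on array 4. The other had an SD of 0.21 and was lowest on array 1. Whether each reads transcripts of Psmc1 alone was not tested. The ATPase genes had a median SD of 0.113, beside 0.168 for all genes above background. Their mean was 8.93, 9.04, 9.03 and 9.05, with array 1 below the other 3.

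The other 19S subunits receive, deubiquitinate and pass on the substrate, and all 11 genes were above the genes of other organs. Psmd14, the deubiquitinase of the cap, was at 8.87, 8.84, 8.96 and 8.77 on arrays 1 to 4 (8.86 ± 0.08). Psmd7, the structural partner of Psmd14 in the lid, was at 7.91, 7.48, 8.35 and 8.33 (8.02 ± 0.41). The partners differed in spread, Psmd7 having the largest SD of the 11 genes and Psmd14 the smallest. Psmd4, a ubiquitin receptor, was at 8.96, 9.28, 9.49 and 9.09 (9.21 ± 0.23). Psmd8 was at 9.42, 9.74, 9.53 and 9.54 (9.56 ± 0.13) and Psmd13 at 7.96, 7.63, 8.0003 and 7.92 (7.88 ± 0.17). Psmd1, Psmd3, Psmd11 and Psmd12 had means between 7.99 and 8.94 and SDs of 0.11 to 0.18. Psmd6 was at 8.46, 9.19, 8.82 and 9.29 (8.94 ± 0.38), with its lowest value on array 1. Psmd2, the scaffold that docks ubiquitin shuttles, was at 8.70, 8.36, 8.81 and 8.37 by the probe set used and at 8.04, 8.34, 8.61 and 7.97 by its second one. The probe sets of Psmd2 disagreed on array 1, which was second highest by the first and below array 2 by the other.

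Chaperones of the cap bind it during assembly and leave the finished particle, and 2 of 3 genes were above background. Psmd10 (gankyrin), which holds an ATPase, was at 8.04, 8.31, 8.59 and 8.86 on arrays 1 to 4 (8.45 ± 0.35). Psmd9 was at 6.69, 6.77, 6.32 and 6.50 (6.57 ± 0.20) and was called above background but not above the genes of other organs, with an adjusted detection p of 0.0411. Psmd5 was at 5.81, 6.10, 5.98 and 5.83 (5.93 ± 0.14) and was not called, with an adjusted p of 0.0775. Psmd5 was the only gene outside the tissue-restricted subunits that was not above background, and this held when any single array was left out.

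The chaperones of the 20S core were above background in 4 of 4 cases, and 2 of them, Psmg1 and Psmg2, were above the genes of other organs. The products of these 2 genes pair to build the alpha ring. Psmg1 was at 8.32, 7.90, 7.98 and 7.59 on arrays 1 to 4 (7.95 ± 0.30). Psmg2 was at 7.84, 7.55, 7.89 and 8.60 (7.97 ± 0.44), which was the largest SD of the 50 genes. On array 4 Psmg1 was at its lowest and Psmg2 at its highest. Psmg3 was at 7.004, 7.22, 7.34 and 6.85 (7.11 ± 0.22) and Psmg4 at 7.71, 7.58, 7.20 and 7.37 (7.46 ± 0.22). None of the 4 had an SD below the median of all genes above background.

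Regulators that bind the ends of the core were all above background, and their spread was small. Psme1, a chain of the interferon-inducible activator PA28, was at 11.04, 11.11, 11.01 and 11.08 on arrays 1 to 4 (11.06 ± 0.04). Its partner chain Psme2 was at 8.88, 8.99, 8.81 and 8.87 (8.89 ± 0.08). Both were highest on array 2 and lowest on array 3. This order, taken from these genes after their values were seen, was shown by 7 of the 50 genes (14%), Psme1 and Psme2 included. All 7 were among the 47 genes above background, and 9.0% of all genes above background showed it. The other 5 were Psmb2, Psmb8, Psmb10, Psmd9 and Psmc3ip. A further probe set carries the names of both Psme2 and Psme2b and was not used for either, with values of 9.59, 9.71, 9.56 and 9.68. It was also highest on array 2 and lowest on array 3.

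Psme3, which forms an activator found in the nucleus, was at 9.03, 9.27, 8.94 and 8.86 on arrays 1 to 4 (9.02 ± 0.18). Psme4, the large activator PA200, was at 7.94, 8.13, 8.23 and 8.13 (8.11 ± 0.12). Psmf1, described as an inhibitor of the core, was at 7.28, 7.18, 7.35 and 7.42 (7.31 ± 0.10). Psmf1 was above background with an adjusted detection p of 0.022, but not above the genes of other organs on every array. The regulators had a median SD of 0.104, and 4 of the 5 were below the median of all genes above background. Of the genes matched by symbol only, Psme3ip1 was at 8.17, 8.20, 7.90 and 8.49 (8.19 ± 0.24) and Psmc3ip at 6.64, 6.96, 6.59 and 6.68 (6.72 ± 0.17), both called.

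The spread of the whole set between arrays was like that of other genes. The 47 genes above background had a median SD of 0.176 log2 units, beside 0.168 for all genes above background, and 21 of the 47 were below that median. Psmb9 and Psme1 were the steadiest, and 5.04% and 6.06% of all genes above background had a smaller SD. At the other end, Psmg2, Psmd7, Psma2 and Psmd6 had SDs above those of 93.7%, 91.8%, 89.7% and 89.6% of these genes. The mean of the 50 genes was 8.71, 8.81, 8.79 and 8.77 on arrays 1 to 4. The mean of the 50 genes spanned 0.11 log2 units. The number of these genes highest on an array was 5, 20, 16 and 9 for arrays 1 to 4, and the number lowest was 15, 10, 14 and 11. Such numbers were not counted over all genes, so they cannot be read as a trait of the 50. The mean of all named genes was 6.414, 6.428, 6.411 and 6.405, also highest on array 2, and spanned 0.023 log2 units. RMA puts arrays on a common distribution, so this mean can differ little between arrays.

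**Figure D3:**
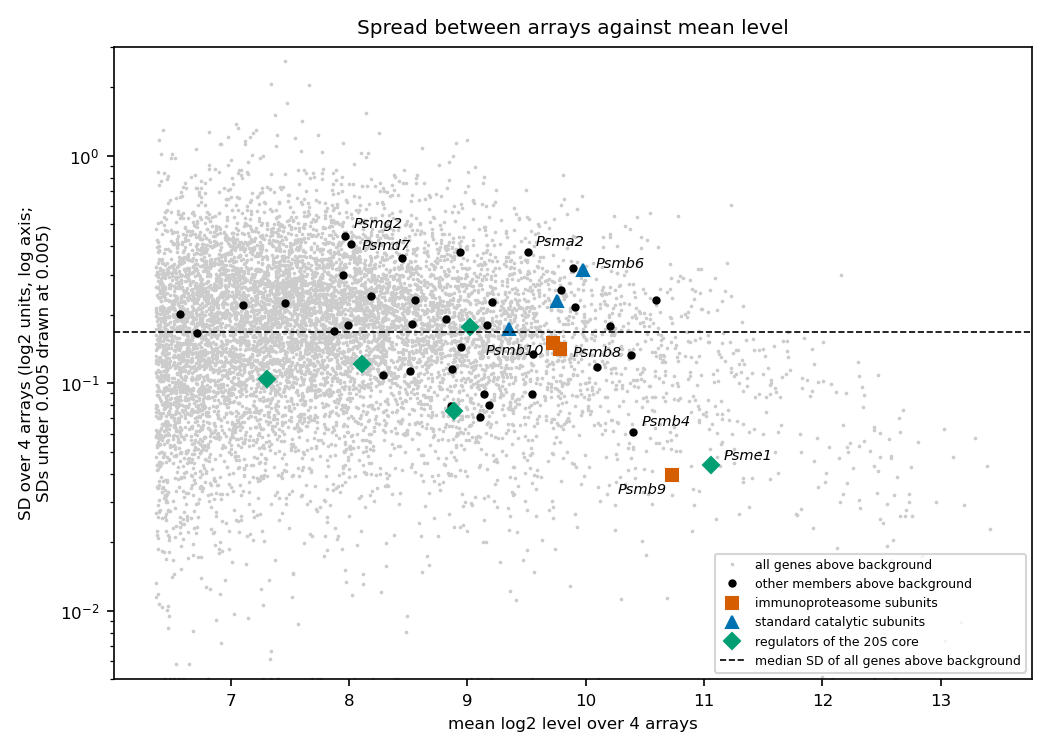
SD over the 4 arrays in log2 units (y axis, log scale) against the mean log2 level (x axis), for all genes above background (grey) and the 47 proteasome genes among them. Psmb9, with an SD of 0.04, and Psme1, also 0.04, lie lowest among the 47, and Psmg2, with 0.44, highest; the dashed line is the median of all genes above background, 0.168.

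**Figure D4:**
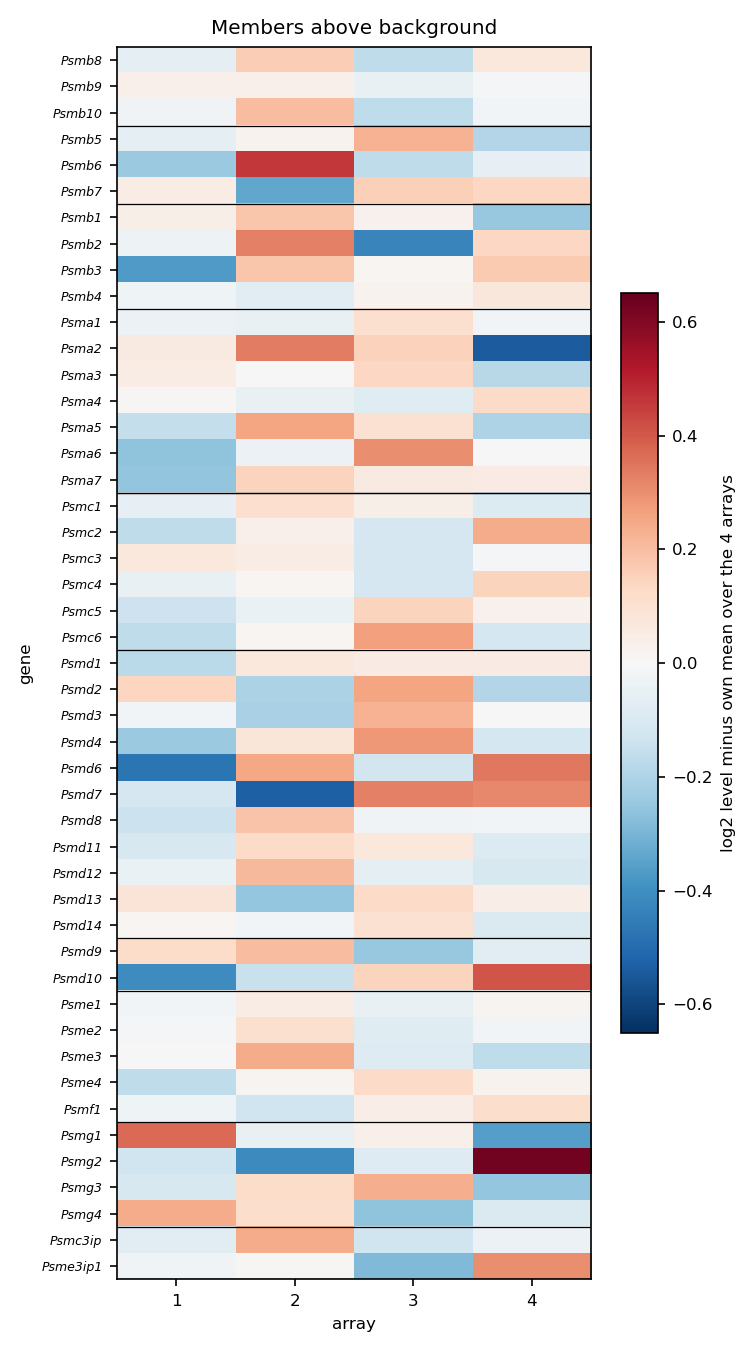
Log2 level minus the gene's own mean over the 4 arrays (colour) for the 47 genes above background (y axis, in the order immunoproteasome, standard catalytic, structural beta, alpha ring, ATPases, other cap subunits, cap chaperones, core regulators, core chaperones and genes matched by symbol only) on each array (x axis). No array is high or low for all genes, and single genes such as Psmg2 on array 4 stand out.

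Partners of the proteasome with other symbols were above background in 12 of 12 measured cases out of 16 listed, and 9 were above the genes of other organs. Sem1, a small subunit of the cap, was at 10.95 ± 0.07. Pomp, the chaperone that matures the core and that the immunoproteasome also needs, was at 10.35, 10.27, 10.61 and 10.06 on arrays 1 to 4 (10.32 ± 0.23). Uchl5, a deubiquitinase of the cap, was at 9.19 ± 0.06 and Txnl1, a thioredoxin of the cap, at 9.18 ± 0.15.

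Genes that act before the proteasome were above background in 4 of 4 measured cases, and 5 further listed genes are not analysed here. Ufd1 and Nploc4, cofactors of the unfoldase Vcp, were at 9.21 ± 0.23 and 7.05 ± 0.26. Vcp itself was at 8.88 ± 0.14 and Uba6, a ubiquitin-activating enzyme, at 8.52 ± 0.26. Nploc4 was the one of these genes that was not above the genes of other organs.

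Factors that regulate proteasome genes were above background in 9 of 9 measured cases out of 11 listed. Nfe2l2, which acts on antioxidant response elements, was at 9.74 ± 0.23, and Maff, a small partner of such factors, at 8.95 ± 0.07. Nfe2l1, which raises proteasome genes when proteasome activity is low, was at 8.36, 8.86, 8.54 and 8.50 on arrays 1 to 4 (8.56 ± 0.21) and was chosen after its values were seen. Irf1, which acts on the immunoproteasome genes under interferon, was at 9.03, 9.04, 8.94 and 8.74 (8.94 ± 0.14). Nlrc5, the transactivator of MHC class I genes and of Psmb9, was at 10.82, 9.31, 10.15 and 9.59 (9.97 ± 0.67). Its values were higher on arrays 1 and 3 than on arrays 2 and 4, as was the mean of the B cell markers. Nlrc5 was highest on array 1 and that mean on array 3. The part of B cells in this was not tested.

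Interferon response genes were above background in 9 of 12 measured cases, and their mean was 7.52, 7.59, 7.78 and 7.91 on arrays 1 to 4. Gbp4 was at 10.18 ± 0.12, Rtp4 at 9.87 ± 0.31, Bst2 at 9.78 ± 0.21 and Ifit3 at 8.77 ± 0.09. Rsad2 at 5.56 ± 0.26, Ifit2 at 5.38 ± 0.38 and Mx1 at 4.81 ± 0.20 were not called. The list mean was highest on array 4 and lowest on array 1. Of 5 listed genes of MHC class I peptide loading all 5 were above background, beside 46.2% of all named genes. The highest means were those of B2m at 12.84 ± 0.02 and Tapbp at 9.17 ± 0.11. The peptide transporter genes Tap1 and Tap2, neighbours of Psmb8 and Psmb9, were at 8.59, 8.25, 8.53 and 8.60 and at 8.28, 8.52, 8.17 and 8.19. Tap2 was highest on array 2, where Tap1 was lowest.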

How the data were processed

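Per the submitters' processing notes, the authors made the deposited log2 levels with RMA, a method that subtracts background, puts arrays on a common distribution and condenses the probes of a set. Its version and software, and any genome build, are not stated there. Scanner files were not used. The table held 35556 probe sets on 4 arrays. GEO's platform annotation gave 21789 of them 1 gene symbol, 1621 several (not named here), and it did not list the other 12146. Symbols were updated through the Entrez identifier (21698 matched in RefSeq's GRCm38.p6 table). For genes with several probe sets the one with the highest mean was used, which concerned 5 of the 50 genes. Whether the probe set used reads the named gene alone was not tested.

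For the detection p, the background genes whose mean reached that of the gene were counted, and this count plus 1 was divided by the 1241 background genes plus 1. It was one-sided, at least 0.000805, and Benjamini-Hochberg adjusted over 19938 genes. Of the background genes 27 were called, and 5 of the 16 genes of other organs. limma 3.58.1 (R 4.3.3) gave an alternative test, against the 95th percentile of background on each array. Scripts ran in Python 3.11.15 and were tested on simulated data. The number of arrays limits the precision. Members, gene lists and tests were chosen with earlier results of these data known. All 50 genes could be named. The values on each array were given for the catalytic subunits, tissue-restricted subunits, regulators, genes not called, and the highest, lowest and most variable gene of each role. In the other lists up to 4 genes called, by highest mean, and up to 4 not called were named. Other genes and arrays singled out were chosen after their values were seen.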

Additional observations from a re-analysis of the deposited data

Results flagged for a closer look

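Over the 63 series of 4 values that were examined (the 50 genes, the means of 10 roles and the 3 pair differences), 2 had 1 array far from the other 3, where chance gives about 1 in 20. Psmd1, a scaffold of the cap, was at 8.70, 8.94, 8.92 and 8.92 on arrays 1 to 4, and the gap between array 1 and the next value was 0.918 of the range. Its values on arrays 3 and 4 were identical, and 10.9% of all genes above background had equal values between arrays. The mean of the 19S ATPase genes was 8.93, 9.04, 9.03 and 9.05, and the gap below array 1 was 0.874 of the range. Both ranges were small, 0.24 and 0.12 log2 units.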

How the results depend on the processing

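The count of 47 genes above background was the same without any 1 array, with arrays 1 and 3 left out together (chosen after the data were seen), with the mean over a gene's probe sets, with arrays centred on their medians and with olfactory receptor genes alone as background. It was 48 when each array had to exceed the 95th percentile of background, and with limma, and Psmb11 was the gene added in both. All named genes were called at 54.4% and 54.2% by these rules. The count of 42 genes above the genes of other organs was the same under each of its alternatives. The number of genes with an SD below the median was 18 to 25 without 1 array, and 11 when the median was taken over all named genes, most of which are not above background and had a median SD of 0.109. The median SD was 0.140 to 0.187 without 1 array. Psmb8 minus Psmb5 was 0.35 to 0.56 without 1 array and Psmb9 minus Psmb6 0.66 to 0.89, and the mean over the pairs was 0.36 to 0.45. Psmb10 minus Psmb7 was -0.21 to 0.07, and it was 0.16 with arrays 1 and 3 left out. No paired analysis was possible because the samples form 1 group. The background correction of RMA could not be varied, and genes near background can be missed.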
